A study of Mus musculus with 6 samples.

Results

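Conventional dendritic cells type 1 (cDC1s) of the mouse kidney were chosen by their own transcripts from single cell RNA sequencing of 6 kidneys. A barcode with at least 500 unique molecular identifiers (UMIs, each a captured RNA molecule), 250 or more genes, and no more than 50% of UMIs from mitochondria was selected on 4 conditions. At least 2 of the 4 genes Xcr1, Clec9a, Wdfy4, and Cadm1 were detected, H2-Aa had at least 3 UMIs, C1qa, C1qb, and C1qc together had fewer than 10 UMIs, and Cd3e and Cd79a had 0 UMIs. The rule found 214 of the 49797 cells that passed the quality limits. Levels of the genes named in the rule describe the choice and are given without a test.

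The study compared kidney allografts that were rejected with those of recipients made tolerant, beside untransplanted kidneys, with 2 kidneys and 2 libraries per group. Naive kidneys came from male wild-type C57BL/6 mice (B6; I-Ab) aged 10–12 weeks. Rejecting kidneys were BALB/c kidneys (I-Ad, aged 6–7 weeks) placed in male B6 recipients without kidneys of their own and retrieved on day 15. Tolerized kidneys were the same grafts in recipients that also received intravenous BALB/c splenocytes fixed with ethylenecarbodiimide (ECDI-SP), before and after transplantation. Each kidney was 1 replicate. The study speaks of separate experiments, but the sources used here do not say which kidney belonged to which, and p values measure only the spread between these kidneys. Naive and transplanted kidneys differed in strain, age, and the list of genes counted, and these cannot be told apart from transplantation. Leukocytes of a graft can come from the donor or the recipient, and the 2 origins were not separated here. All samples were labeled male, although the study's methods allow kidney donors of either sex. Ddx3y had 1, 1, 24, 32, 59, and 32 UMIs in the cDC1s of the 6 kidneys, and Xist had 0 in each.

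Dendritic cells sample tissue antigens and present them to T cells. The cDC1 lineage depends on the transcription factors Irf8 and Batf3 and on the growth factor Flt3l, and it is known for cross-presentation, the loading of antigens from engulfed dead cells onto MHC class I for CD8+ T cells. Clec9a binds actin exposed by dead cells, Wdfy4 is needed for cross-presentation, Cadm1 is an adhesion molecule, and Xcr1 is the receptor for Xcl1, a chemokine made by NK cells and activated CD8+ T cells. In grafts, dendritic cells can carry donor antigen to T cells in lymphoid organs and can restimulate T cells within the tissue.

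Xcr1 was detected in 112 of the 214 cells (52.3%), Clec9a in 165 (77.1%), Wdfy4 in 170 (79.4%), and Cadm1 in 96 (44.9%). Of these cells, 126 had 2 of the 4 genes, 61 had 3, and 27 had all 4. The most frequent pair was Clec9a with Wdfy4, found together in 124 cells, and Xcr1 with Clec9a was found in 78. A pair without Xcr1 and Clec9a, Wdfy4 with Cadm1, was the sole evidence for 15 cells. Just outside the limit on markers, 1793 cells met every other condition with 1 of the 4 genes. Another 1664 cells with 2 or more markers were left out at or above the limit on C1q UMIs, 16 for Cd3e or Cd79a, and 15 for too little H2-Aa. Close to the limits, 2 cells had 3 UMIs of H2-Aa and 2 left out had 2 UMIs, whereas 3 cells had 9 UMIs of C1q and 3 left out had 10.

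The choice favored cells with many UMIs. The median of the chosen cells was 11069 UMIs (range, 804–48838), against medians of 2473 to 7075.5 UMIs among all cells kept in the 6 kidneys. By kidney the medians of the chosen cells were 4343 and 6402 UMIs in naive kidneys and 9800 and 7737.5 in rejecting kidneys, compared with 15463 and 12897 in tolerized kidneys. Depth thus differed between the groups. Cell counts, shares of leukocytes, and the shares with maturation or cell cycle genes were also read after thinning. The part of depth in the other results below was not tested. When every cell was first thinned to 1500 UMIs, the rule found 0 and 1 cells in naive kidneys and 10 and 20 in rejecting kidneys, compared with 6 and 12 in tolerized kidneys.

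Background counts of the rule's genes were read in proximal tubule cells. Free RNA and RNA made by the tubule cells themselves were not separated. The rule itself fixed a higher share in the chosen cells, so that the comparison gives the size of the background and does not support the name. After thinning to 1500 UMIs, Xcr1 was detected in 14.3% and 16% of the chosen cells of rejecting kidneys and 6.38% and 25% of those of tolerized kidneys. In proximal tubule cells of the same kidneys, which should lack Xcr1, the shares were 0.090% and 0.099% in rejecting kidneys, 0.082% in tolerized kidney 1, and 0 of 2763 cells in tolerized kidney 2, which allows up to 0.109%. Clec9a was found in 12.8% to 30% of the chosen cells of the 4 grafts and in 0.027% to 0.452% of tubule cells. Cadm1 was found in 8% to 16.1% of the chosen cells of the grafts and in 1.19% to 1.99% of their tubule cells. In naive kidneys it was found in 4.03% and 2.74% of tubule cells. H2-Aa, in contrast, was found in 63% to 84.7% of tubule cells of the grafts and in 1.13% and 3.56% of those of naive kidneys. Whether tubule cells of the grafts made H2-Aa was not tested. Thinning removed 1 cell of rejecting kidney 1 and 1 of tolerized kidney 2.

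The name was checked against genes outside the rule. Of the cDC1 markers the rule did not use, 16 genes with Irf8, Batf3, Id2, Flt3, Itgae, Tlr3, and Naaa among them, the summed level in raw CPM (UMIs scaled to the summed total of a kidney's chosen cells) was 4836 and 5277 in naive kidneys and 2981 and 4346 in rejecting kidneys, compared with 2357 and 3047 in tolerized kidneys. The same sum was 705 to 1453 raw CPM in 238 cells with cDC2 markers (at least 2 of Cd209a, Clec10a, Mgl2, and Irf4, and otherwise the same limits) and 1048 to 1473 in 2910 C1q-high macrophages (at least 10 UMIs of C1q). Neither kind had more than 1 of the 4 rule markers, so that these sums describe chosen cells. The sum over the cDC1s lay above that of both other kinds of cells in every kidney, but single genes and cells varied. In tolerized kidney 2 Flt3 had 54 CPM after TMM normalization in cDC1s against 61.1 in the cells with cDC2 markers. Itgae had 9.95 against 20.4 there. Irf8, Batf3, Id2, Tlr3, and Naaa were higher in the cDC1s of that kidney, as were Flt3 and Itgae in the other grafts. Among cells with Xcr1 or Clec9a the median cell had 2004 and 3740 raw CPM of the 16 markers in the rejecting and 1974 and 1957 in the tolerized kidneys. In tolerized kidney 1 this was less than the median of 3281 raw CPM of macrophage markers in the same cells, whereas in the other 3 grafts the macrophage median was 547 to 864. Macrophage markers summed to 980.3 to 4549 raw CPM in the cDC1s, led by Lyz2, and to 11647 to 44168 in the C1q-high macrophages. NK cell markers reached at most 21.9 raw CPM, with Ncr1 at 0 in all 6 kidneys, and T cell markers at most 127.

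**Figure D1:**
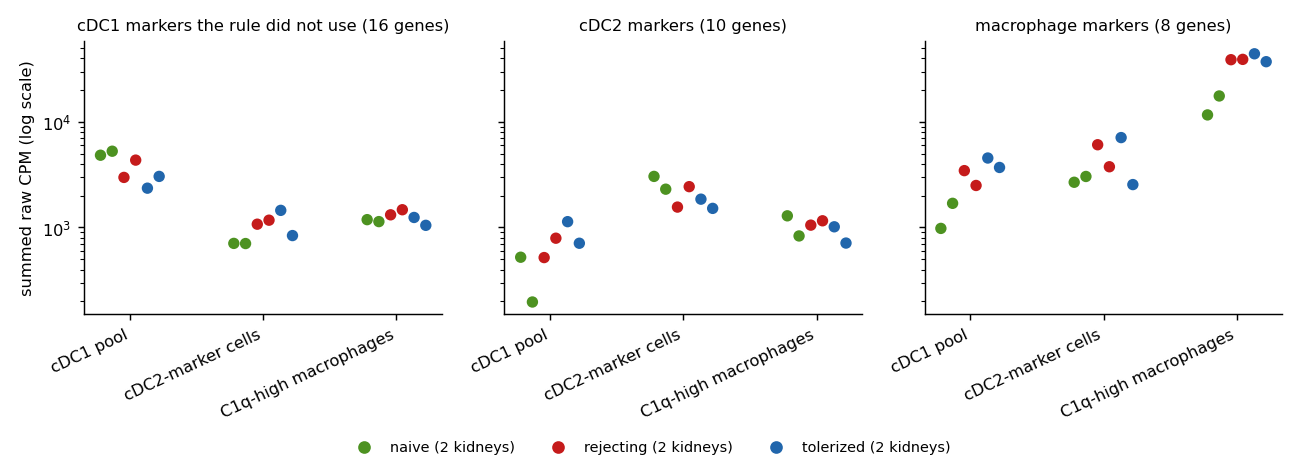
Summed raw CPM (log axis) of 3 marker lists in the cDC1s, the cells with cDC2 markers, and the C1q-high macrophages, with 1 point per kidney colored by group. The cDC1 markers outside the rule were at 2357 raw CPM or more in the cDC1s and at 1473 or less in the other cells, and macrophage markers were highest in the C1q-high macrophages.

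Tolerized kidney 1 stood apart in what else its chosen cells held. Transcripts of 8 proximal tubule markers exceeded 1% of UMIs in 16 of the 214 cells, of which 12 came from tolerized kidney 1, 2 from tolerized kidney 2, and 2 from rejecting kidney 1. The 9 cells of tolerized kidney 1 that were chosen on Wdfy4 and Cadm1 alone had a median of 72038 raw CPM of tubule markers, and 5 of these cells had no UMI of Ptprc, the pan-leukocyte gene for CD45. The summed tubule markers were 4182 and 4450 in naive kidneys and 1304 and 138 in rejecting kidneys, compared with 24084 and 4710 in tolerized kidneys, led in tolerized kidney 1 by Kap at 18220 raw CPM. Doublet scores called 27 of the 214 cells, 6 of the 7 naive cells among them. Requiring Xcr1 or Clec9a and at most 1% of UMIs from tubule markers left 2 and 4 cells in naive kidneys and 53 and 47 in rejecting kidneys, compared with 34 and 51 in tolerized kidneys. No barcode was shared between kidneys among the 214 cells, whereas 195 barcodes occurred in more than 1 kidney among all 49797.

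**Figure D2:**
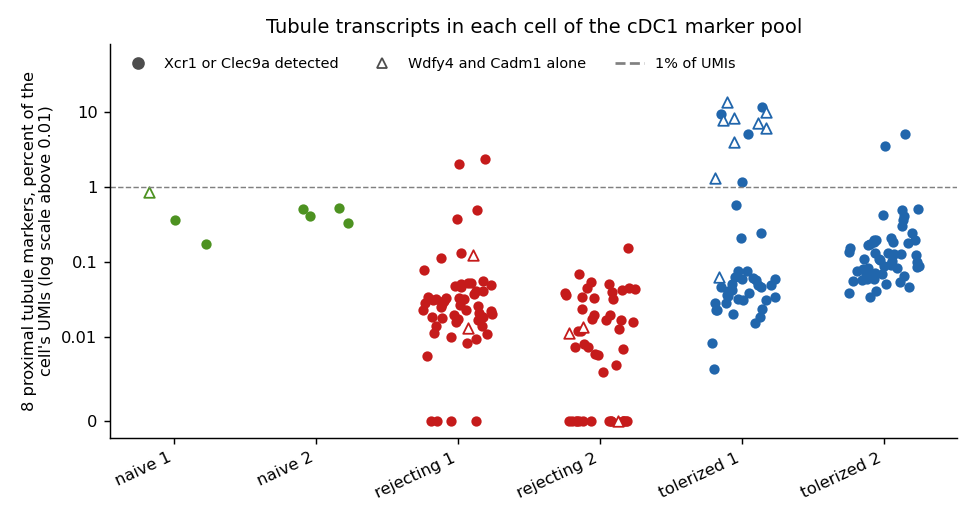
Share of each cell's UMIs that came from 8 proximal tubule markers (log scale above 0.01%) in the chosen cells of each kidney. Circles had Xcr1 or Clec9a detected and triangles Wdfy4 and Cadm1 alone; 12 of the 16 cells above the dashed line at 1% came from tolerized kidney 1.

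The first question was how many cDC1s each kind of kidney held. The rule found 3 and 4 cells in naive kidneys (3.5 ± 0.707, mean ± SD, n = 2), 57 and 50 in rejecting kidneys (53.5 ± 4.95), compared with 47 and 53 in tolerized kidneys (50 ± 4.24). The rejecting and tolerized groups overlapped, and the difference of -3.5 cells was smaller than the SD of either group (2-sided exact permutation test, p = 0.667, where the smallest p for 2 against 2 kidneys is 0.333). Each graft held over 10 times the cells of each naive kidney by count, but the libraries differed in cells kept. As a share of the cells kept, the chosen cells were 0.0415% and 0.0660% in naive kidneys. They were 0.486% and 0.619% in rejecting kidneys, compared with 0.479% and 0.770% in tolerized kidneys. The counts are of cells kept from each library and not totals of a kidney, and fewer cells cannot be told apart from cells with too little RNA for the rule.

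Among leukocytes tolerized kidney 2 stood apart from the other grafts. Of the 214 cells 14 had no UMI of Ptprc, 1 in naive kidney 1, 5 in rejecting kidney 1, 7 in tolerized kidney 1, and 1 in tolerized kidney 2. Of the cells with Ptprc, cDC1s with Ptprc made up 1.09% (95% Wilson interval, 0.30–3.90) and 1.95% (0.761–4.91) in naive kidneys, 0.779% (0.595–1.02) and 0.905% (0.687–1.19) in rejecting kidneys, compared with 0.866% (0.636–1.18) and 2.31% (1.77–3.02) in tolerized kidneys. Tolerized kidney 1 lay between the rejecting kidneys, so that the groups overlapped, and the mean difference of 0.746 percentage points came from tolerized kidney 2 (2-sided exact permutation test, p = 0.667). With all chosen cells counted, there were 0.854 and 0.905 cells per 100 cells with Ptprc in rejecting kidneys, compared with 1.02 and 2.36 in tolerized kidneys, a mean difference of 0.807 (p = 0.333, the smallest possible in this exact permutation test), which was 0.137 without tolerized kidney 2 and 1.48 without tolerized kidney 1. These ratios did not overlap, but they did in 5 of the 9 ways of choosing cells. With Xcr1 or Clec9a and at most 1% tubule UMIs required, tolerized kidney 1 had 0.736 per 100, below the 0.794 and 0.851 of the rejecting kidneys, and tolerized kidney 2 had 2.27. With Ptprc required of the chosen cells the groups overlapped in each of the 9. With cells thinned to 1500 UMIs before the rule, 7 of 3300 and 16 of 3712 cells with Ptprc were cDC1s in rejecting kidneys and 3 of 2949 and 6 of 1336 in tolerized kidneys, and tolerized kidney 2 (0.449%) was close to rejecting kidney 2 (0.431%). The 4 grafts held 6671, 5525, 4621, and 2250 cells with Ptprc, fewest in tolerized kidney 2, and intervals cover counting error only.

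Against other myeloid cells, tolerized kidney 2 again stood highest. There were 76.9 and 35.1 cDC1s per 1000 C1q-high macrophages in naive kidneys and 60.4 and 49.7 in rejecting kidneys, compared with 74.2 and 302.9 in tolerized kidneys. The ratio of cDC1s to cells with cDC2 markers was 0.734 and 1.77 in tolerized kidneys, against 1 and 0.704 in rejecting kidneys and 0.30 and 0.667 in naive kidneys. The C1q-high macrophages numbered 633 and 175 in tolerized kidneys against 943 and 1006 in rejecting kidneys, and the cells with cDC2 markers 64 and 30 against 57 and 71.

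**Figure D3:**
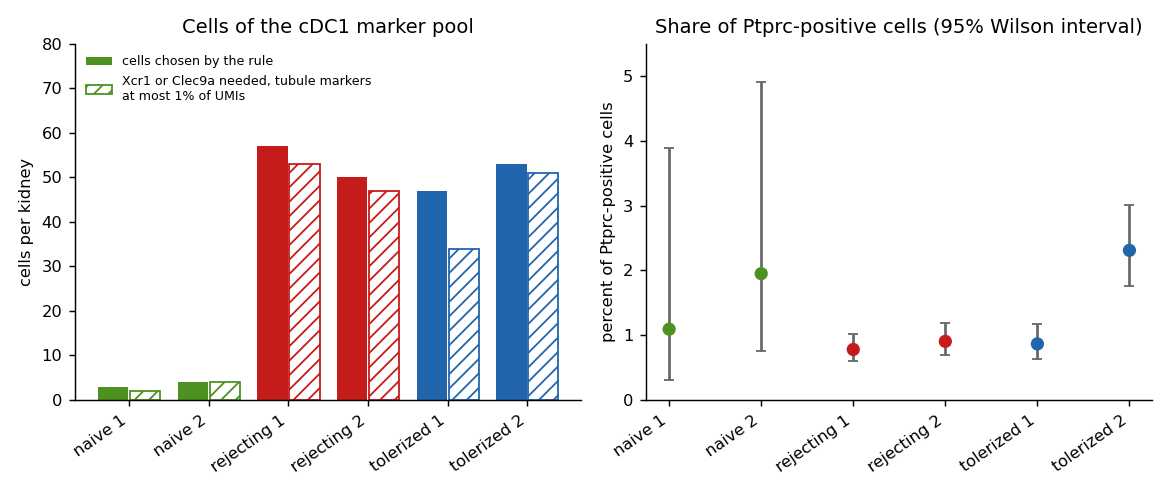
Left, number of chosen cells in each kidney (filled bars) and of those left when Xcr1 or Clec9a and at most 1% tubule UMIs were required (hatched bars). Right, chosen cells with Ptprc as a percentage of all Ptprc-positive cells, with 95% Wilson intervals; tolerized kidney 2, at 2.31%, lay above the other grafts, which lay between 0.779% and 0.905%.

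The next question was whether cDC1s of tolerized kidneys differed in their transcripts from those of rejecting kidneys. Counts were summed over the cDC1s of each kidney, which gave 639786 and 406786 UMIs for rejecting and 812902 and 788316 for tolerized kidneys. Levels below are CPM after TMM normalization, and fold changes are tolerized over rejecting. With edgeR's quasi-likelihood test, 0 of 6556 genes tested (0%) passed a false discovery rate (FDR) of 0.05, and 550 (8.39%) had an unadjusted p under 0.05, of which 394 were higher in tolerized kidneys. These counts include 8 genes of the rule. DESeq2 called 41 genes, 40 of them higher. With the replicate number as a block edgeR called 247, 222 of them higher, but whether equal numbers mark a shared experiment is not known. Leaving out rejecting kidney 2, tolerized kidney 1, or tolerized kidney 2 gave 74, 12, and 350 calls in edgeR, and leaving out rejecting kidney 1 gave 0. On simulated counts with the same depths the test recovered 6.52% of changes of 2-fold, 76% of 4-fold, 94% of 8-fold, and 100% of 16-fold. It made 11 false calls there among 6105 genes. The simulated kidneys varied only by dispersions fitted to these kidneys. In the measured counts no gene passed, not even Fut9 with a log2 fold change of 5.45 (FDR 0.240). The recovered shares thus hold for the simulated counts alone and set no limit on the changes missed here. In both tolerized kidneys 1285 genes (19.6%) lay above both rejecting kidneys and 1219 (18.6%) below, and these shares are the background for the lists that follow. No gene of any list passed the FDR in edgeR without the block, the fit meant below unless another is named. With the block the calls included 8 tubule marker genes and 3 ribosomal protein genes. Values of the lists are given as a description, since members that passed the filter on low counts can owe this to the group where they were high.

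No transcription factor or receptor that defines the lineage passed the FDR, and for most the groups overlapped. Irf8, the transcription factor that specifies cDC1s, stood at 1122 and 1013 CPM in rejecting kidneys and 745 and 955 CPM in tolerized kidneys (log2 fold change -0.33, SE 0.27, FDR 0.842). Its partner Batf3 stood at 171 and 158 CPM in rejecting kidneys and 99.8 and 165 CPM in tolerized kidneys (log2 fold change -0.32, SE 0.33, FDR 0.882). Flt3, the receptor of Flt3l, had 48.1 and 136 CPM in rejecting kidneys and 32 and 54 CPM in tolerized kidneys (log2 fold change -1.08, SE 0.55, FDR 0.678), with rejecting kidney 2 the highest of the 4. Without rejecting kidney 2 the log2 fold change was -0.20 for Flt3, and without tolerized kidney 1 it was 0.0086 for Batf3. The groups overlapped for Batf3 and Flt3 but not for Irf8, which was lower in both tolerized kidneys. Its log2 fold change was -0.038 once tubule-rich cells and cells without Xcr1 and Clec9a were left out. Id2, an inhibitor of E proteins needed for cDC1s, had 377 and 602 CPM in rejecting kidneys and 484 and 696 CPM in tolerized kidneys, Itgae, which encodes the integrin CD103, had 16 and 54.1 CPM in rejecting kidneys and 21.8 and 9.95 CPM in tolerized kidneys, and the endosomal receptor for double-stranded RNA Tlr3 had 25.6 and 25.9 CPM in rejecting kidneys and 17.9 and 36.9 CPM in tolerized kidneys. Naaa, a lysosomal amidase, had 484 and 978 CPM in rejecting kidneys and 443 and 693 CPM in tolerized kidneys. Of the 16 identity genes, all of which passed the filter on low counts, 0 were higher and 3 (Irf8, Btla, and Rab7b) lower in both tolerized kidneys. Over all genes tested 19.6% were higher and 18.6% lower, so that the count of 3 is not read as a result. The median log2 fold change of the list was -0.35 against -0.02 over all genes tested. Over the other processing choices and kidneys left out the list's median ranged from -0.67 to -0.072, and it was -0.11 without tolerized kidney 1. Among genes of the rule, Xcr1 had 173 and 143 CPM in rejecting kidneys and 109 and 234 CPM in tolerized kidneys, Clec9a 141 and 193 CPM in rejecting kidneys and 101 and 155 CPM in tolerized kidneys, and Wdfy4 237 and 409 CPM in rejecting kidneys and 160 and 195 CPM in tolerized kidneys.

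Markers of the other conventional lineage, cDC2, were partly higher within these cells. Of 10 such genes 9 passed the filter, and 4 (Clec4a2, Cd209a, Mgl2, and Sirpa) were higher and 0 lower in both tolerized kidneys, with a median log2 fold change of 0.92 (range over the other processing choices and kidneys left out, 0.30 to 1.14). Clec4a2, an inhibitory C-type lectin of myeloid cells, had 14.4 and 18.8 CPM in rejecting kidneys and 156 and 85.2 CPM in tolerized kidneys (log2 fold change 2.87, SE 0.45, FDR 0.245), and DESeq2 gave an FDR of 0.00629. The summed cDC2 markers were 519 and 792 raw CPM in rejecting kidneys and 1135 and 709 raw CPM in tolerized kidneys of the cDC1s and 1517 to 2437 raw CPM in the cells chosen on cDC2 markers of the same grafts.

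For all but 1 of the genes of antigen presentation on MHC class II the groups overlapped. H2-Ab1, the class II beta chain of the I-A molecule, had 7817 and 9151 CPM in rejecting kidneys and 7346 and 8541 CPM in tolerized kidneys (log2 fold change -0.095, SE 0.28, FDR 0.968). Cd74, the invariant chain that occupies the class II groove until the endosome, had 17894 and 18685 CPM in rejecting kidneys and 17667 and 18760 CPM in tolerized kidneys (log2 fold change -0.006, SE 0.27, FDR 0.996). Ciita, the transactivator of the class II genes, had 314 and 249 CPM in rejecting kidneys and 271 and 283 CPM in tolerized kidneys (log2 fold change -0.026, SE 0.27, FDR 0.991). All 10 class II genes listed in the graft libraries passed the filter; 1 (H2-DMb2) was higher and 0 lower in both tolerized kidneys, with a median of 0.019 (range, -0.11 to 0.27).

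Genes of the class I pathway, on which cross-presentation ends, were partly lower in tolerized kidneys. Tap1, a subunit of the transporter that brings peptides to class I, had 393 and 421 CPM in rejecting kidneys and 249.6 and 254 CPM in tolerized kidneys (log2 fold change -0.69, SE 0.25, FDR 0.535), and the 2 tolerized kidneys lay well below the 2 rejecting kidneys. Psmb9, a subunit of the immunoproteasome, had 629.8 and 856 CPM in rejecting kidneys and 351 and 681 CPM in tolerized kidneys, and its groups overlapped. H2-K1, a class I heavy chain, had 2772 and 1599 CPM in rejecting kidneys and 1748 and 1847 CPM in tolerized kidneys, also overlapping. B2m, the light chain of class I, was slightly higher with 1513 and 1738 CPM in rejecting kidneys and 1799 and 2094 CPM in tolerized kidneys (log2 fold change 0.26, SE 0.26, FDR 0.879). Of 18 genes, all past the filter, 2 (B2m and Nlrc5) were higher and 7 (Tap1, Psmb8, Psmb10, Psme1, Psme2, H2-D1, and Sec22b) lower in both tolerized kidneys, with a median of -0.26 (range, -0.36 to -0.12, the highest without tolerized kidney 1).

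Of the costimulatory and inhibitory ligands for T cells, some were lower in both tolerized kidneys and as many overlapped between the groups. Cd80, a ligand of CD28 and CTLA-4, had 22.4 and 51.7 CPM in rejecting kidneys and 11.5 and 8.52 CPM in tolerized kidneys (log2 fold change -1.81, SE 0.56, FDR 0.438). Its log2 fold change ranged from -2.31 to -1.18 with each kidney left out in turn. Cd86, its close relative, had 221 and 268 CPM in rejecting kidneys and 149.7 and 175 CPM in tolerized kidneys (log2 fold change -0.59, SE 0.28, FDR 0.651). Cd40, the receptor through which helper T cells activate dendritic cells, had 188 and 65.8 CPM in rejecting kidneys and 47.4 and 61.1 CPM in tolerized kidneys (log2 fold change -1.24, SE 0.50, FDR 0.575). For each of the 3 genes both tolerized kidneys lay below both rejecting kidneys, by a small margin for Cd40, where rejecting kidney 1 set the difference: without it the log2 fold change was -0.24. The inhibitory ligand Cd274 (PD-L1) had 60.9 and 58.8 CPM in rejecting kidneys and 37.1 and 31.3 CPM in tolerized kidneys (log2 fold change -0.80, SE 0.33, FDR 0.585). Of 15 genes 12 passed the filter, and 0 were higher and 6 (Cd80, Cd40, Cd274, Cd86, Cd83, and Icosl) lower in both tolerized kidneys, with a median of -0.53 (range, -0.82 to -0.44). The same genes had a median of 0.056 in the cells with cDC2 markers and -0.42 in the C1q-high macrophages.

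Several chemokines were lower in both tolerized kidneys, and none passed the FDR. Cxcl9, a ligand of Cxcr3 on activated T cells, had 2928 and 1373 CPM in rejecting kidneys and 1016 and 1134 CPM in tolerized kidneys (log2 fold change -1.0, SE 0.39, FDR 0.560). Its level in rejecting kidney 1 was far above the other 3. At least 1 UMI of it was found in 50 of 57 and 36 of 50 cDC1s of rejecting kidneys and in 31 of 47 and 34 of 53 of tolerized kidneys. The part of free RNA in these and later counts of cells with a gene was not tested. Cxcl10, another ligand of Cxcr3, had 787 and 247 CPM in rejecting kidneys and 232 and 129 CPM in tolerized kidneys (log2 fold change -1.52, SE 0.57, FDR 0.551), again with rejecting kidney 1 the highest. Without rejecting kidney 1 the log2 fold change was -0.32 for Cxcl9 and -0.42 for Cxcl10. Ccl4, a C-C chemokine, had 322 and 399.7 CPM in rejecting kidneys and 64 and 168 CPM in tolerized kidneys (log2 fold change -1.64, SE 0.46, FDR 0.385), and Ccl3, a related chemokine, had 86.5 and 47 CPM in rejecting kidneys and 17.9 and 15.6 CPM in tolerized kidneys (log2 fold change -2.0, SE 0.44, FDR 0.283). With each kidney left out in turn the log2 fold change ranged from -2.50 to -1.10 for Ccl4 and from -2.39 to -1.44 for Ccl3. Ccl5 overlapped between the groups, with 776 and 119.9 CPM in rejecting kidneys and 76.8 and 233 CPM in tolerized kidneys, as did Cxcl16, the ligand of Cxcr6, with 367 and 186 CPM in rejecting kidneys and 256 and 206 CPM in tolerized kidneys. Of 20 genes 13 passed the filter, and 0 were higher and 5 (Ccl3, Ccl4, Cxcl10, Cxcl9, and Ebi3) lower in both tolerized kidneys, with a median of -1.0 (range, -1.51 to -0.26, the highest without rejecting kidney 1). The medians of these genes were 0.28 in the cells with cDC2 markers and -0.087 in the C1q-high macrophages. In the naive kidneys, whose cDC1s held 15302 and 25391 UMIs in all, Cxcl9 had 0 UMIs.

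Cytokines that support CD8+ T cells were sparse. Il12b, the shared subunit of IL-12 and IL-23, had 71, 7, and 31 UMIs in rejecting kidney 1, rejecting kidney 2, and tolerized kidney 1, in 1 cell each, and 0 in tolerized kidney 2. Il15 had 24 and 7.05 CPM in rejecting kidneys and 16.6 and 19.9 CPM in tolerized kidneys (log2 fold change 0.14, SE 0.59, FDR 0.982). Il18 did not pass the filter on low counts, with 5 and 11 UMIs in rejecting kidneys and 9 and 5 UMIs in tolerized kidneys. None of the 3 was read as a difference between the groups.

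Receptors that guide or feed these cells are given as values. Ccr2, the receptor through which bone marrow-derived myeloid cells leave the blood, had 240.4 and 336 CPM in rejecting kidneys and 472 and 519 CPM in tolerized kidneys (log2 fold change 0.78, SE 0.29, FDR 0.533), and both tolerized kidneys lay above both rejecting kidneys. It was found in 28 and 38 cells of rejecting kidneys and 31 and 32 of tolerized kidneys, and its log2 fold change was 1.11 in the cells with Xcr1 or Clec9a and few tubule UMIs. Ccr7, which directs mature dendritic cells to lymph nodes, had 62 UMIs in 8 cells and 18 in 4 cells of rejecting kidneys, 0 in tolerized kidney 1, and 25 in 4 cells of tolerized kidney 2 (FDR 0.716 in edgeR). Cxcr3 had 24 and 40 CPM in rejecting kidneys and 11.5 and 34.1 CPM in tolerized kidneys, with overlap. Of 14 receptor genes 13 passed the filter, and 3 (Ccr2, Csf1r, and Cx3cr1) were higher and 1 (Ccr7) lower in both tolerized kidneys. Over all genes tested these shares were 19.6% and 18.6%, so that the counts are not read as a result about receptors.

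Most genes induced by type I interferons were lower in both tolerized kidneys, and none passed the FDR. Of 18 genes 17 passed the filter, and 0 were higher and 11 lower in both tolerized kidneys (background, 18.6%), with a median of -0.81 (range, -1.21 to -0.41). The medians were -0.22 in the cells with cDC2 markers and -0.28 in the C1q-high macrophages of the same kidneys. Isg15, a ubiquitin-like modifier, had 396 and 296 CPM in rejecting kidneys and 145 and 178 CPM in tolerized kidneys (log2 fold change -1.11, SE 0.29, FDR 0.350). Irf7, the transcription factor that amplifies the type I response, had 120.2 and 111 CPM in rejecting kidneys and 58.9 and 72.5 CPM in tolerized kidneys (log2 fold change -0.81, SE 0.29, FDR 0.507). Ifit3, which belongs to a family that binds viral RNA, had 62.5 and 40 CPM in rejecting kidneys and 24.3 and 34.1 CPM in tolerized kidneys (log2 fold change -0.83, SE 0.40, FDR 0.651). In these 3 genes each tolerized kidney was below each rejecting kidney. Without rejecting kidney 1 the log2 fold change of Ifit3 was -0.41. Rsad2, which encodes the antiviral enzyme viperin, was among the 5 genes with the lowest p on the lower side, with 160.3 and 37.6 CPM in rejecting kidneys and 3.84 and 9.95 CPM in tolerized kidneys (log2 fold change -3.86, SE 0.82, FDR 0.281), and DESeq2 gave an FDR of 0.00727. Its log2 fold change ranged from -4.67 to -2.39 with each kidney left out in turn. It had 100 UMIs in 8 cells of rejecting kidney 1, of which 50 were in 1 cell, 16 in 7 cells of rejecting kidney 2, and 3 and 7 in 2 and 6 cells of tolerized kidneys.

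For most genes induced by interferon-γ the groups overlapped. Irf1, an early target, had 345 and 268 CPM in rejecting kidneys and 202 and 192 CPM in tolerized kidneys (log2 fold change -0.64, SE 0.27, FDR 0.602). Both tolerized kidneys lay below both rejecting kidneys. Gbp2, a guanylate-binding protein, had 639 and 388 CPM in rejecting kidneys and 472 and 381 CPM in tolerized kidneys and overlapped, as did the receptor chain Ifngr1 with 157 and 190.4 CPM in rejecting kidneys and 174 and 131 CPM in tolerized kidneys. Of 20 genes 19 passed the filter, 1 (Irgm2) was higher and 5 (Gbp5, Irf1, and Serpina3g among them) lower in both tolerized kidneys, with a median of -0.27 (range, -0.50 to -0.063, the highest without rejecting kidney 1 and the lowest without rejecting kidney 2). In the naive cDC1s the list summed to 915 and 709 raw CPM, against 3061 to 5250 in the 4 grafts.

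**Figure D4:**
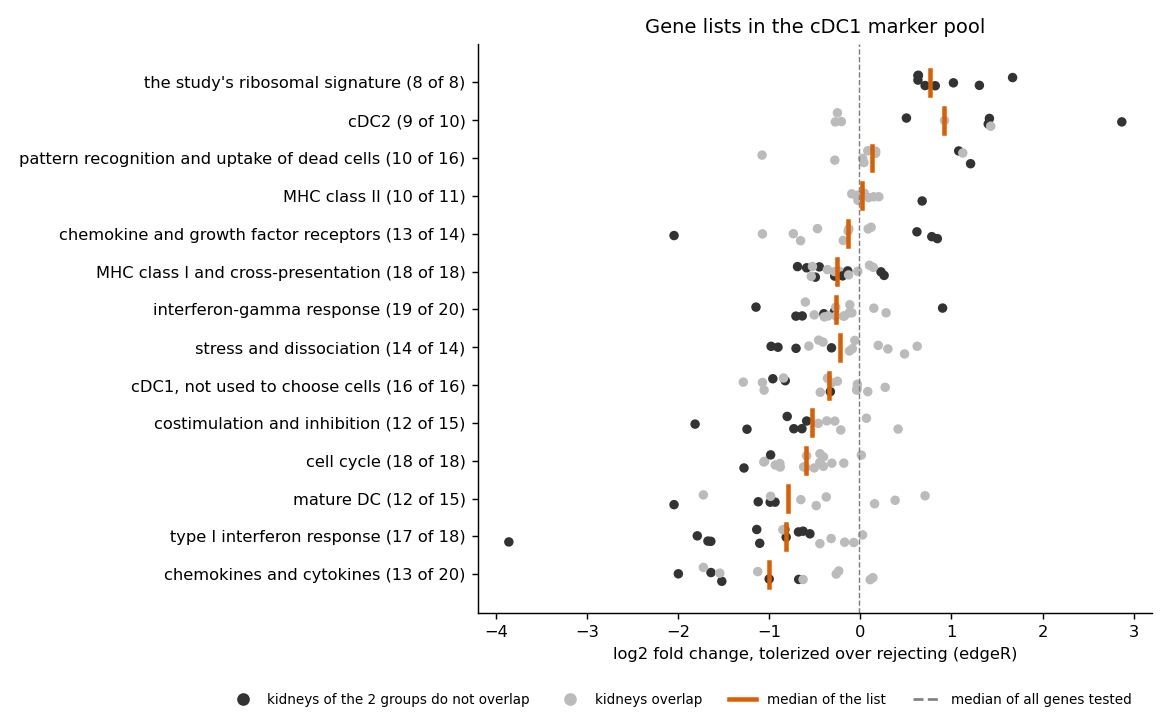
Log2 fold change (edgeR, tolerized over rejecting) of each tested gene of 14 lists in the cDC1s, with the number tested of the number listed. Dark points are genes whose kidneys did not overlap between the 2 groups and orange lines are medians, which ran from -1.0 for chemokines and cytokines to 0.92 for cDC2 markers. No point passed the FDR in edgeR without the replicate block.

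Genes of pattern recognition, Toll-like receptors among them, were listed together with genes of the uptake of dead cells. Axl, a receptor tyrosine kinase that binds phosphatidylserine on dying cells through Gas6, had 49.7 and 23.5 CPM in rejecting kidneys and 92.1 and 66.8 CPM in tolerized kidneys (log2 fold change 1.08, SE 0.43, FDR 0.565), above in both tolerized kidneys. Its log2 fold change ranged from 0.64 to 1.78 with each kidney left out in turn. The related receptor Mertk did not pass the filter, with 2 and 0 UMIs in rejecting kidneys and 9 and 3 UMIs in tolerized kidneys. Of 16 genes 10 passed, and 2 (Cd36 and Axl) were higher and 0 lower in both tolerized kidneys, with a median of 0.12 (range, 0.034 to 0.31, the lowest without rejecting kidney 2).

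Maturation and division were read from single cells as well. Among cells thinned to 1500 UMIs, at least 2 of 7 maturation genes (Ccr7, Fscn1, Ccl22, Il4i1, Cacnb3, Socs2, and Relb) were detected in 7 of 56 (12.5%) and 1 of 50 (2.00%) cDC1s of rejecting kidneys and in 0 of 47 and 4 of 52 (7.69%) of tolerized kidneys, where 0 of 47 allows up to 6.38%. Thinned to 1000 UMIs, the counts were 7 of 56 and 1 of 50 in rejecting kidneys and 1 of 47 and 1 of 53 in tolerized kidneys, so that the order of the tolerized kidneys is not resolved at this depth. The groups overlapped (2-sided exact permutation test, p = 0.667), and unthinned shares were 28.1%, 12%, 25.5%, and 18.9%. No naive cell, of 3 and 4, had them, too few to limit the share below 75%. Of the cells with cDC2 markers in the grafts, 1.41% to 3.33% had the same genes, and of the C1q-high macrophages at most 1.28%. Of 15 maturation genes 12 passed the filter in the summed counts, and 0 were higher and 4 (Birc3, Relb, Cacnb3, and Ccr7) lower in both tolerized kidneys, with a median of -0.80 that was 0.04 without rejecting kidney 1. Fscn1, an actin-bundling protein of mature dendritic cells, had 24 and 16.5 CPM in rejecting kidneys and 19.2 and 9.95 CPM in tolerized kidneys.

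At least 3 of 10 cell cycle genes were found in 7.14% and 16% of the thinned cDC1s of rejecting kidneys and in 2.13% and 11.5% of tolerized kidneys (2-sided exact permutation test, p = 0.667), and unthinned shares were 17.5%, 22%, 6.38%, and 20.8%. In the grafts, 2.82% to 4.69% of the cells with cDC2 markers and 1.75% to 4.01% of the C1q-high macrophages had these genes. Mki67, a marker of dividing cells, had 109 and 270.4 CPM in rejecting kidneys and 47.4 and 108 CPM in tolerized kidneys (log2 fold change -1.28, SE 0.55, FDR 0.602), and Top2a, a topoisomerase of dividing cells, had 103 and 343 CPM in rejecting kidneys and 46.1 and 166 CPM in tolerized kidneys (log2 fold change -1.06, SE 0.72, FDR 0.796). Without rejecting kidney 2 the log2 fold changes were -0.52 and 0.016. All 18 cell cycle genes passed the filter, 0 were higher and 2 (Mki67 and Ccnb1) lower in both tolerized kidneys, and the median of -0.60 ranged from -1.78 to 0.01, with the highest value when tolerized kidney 1 was left out. The share reads the detected genes and not the cycle itself, and the part of free RNA in it was not tested.

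The 8 ribosomal genes of a signature that the study named on these kidneys were all higher in both tolerized kidneys (background, 19.6%), with a median of 0.77 (range, 0.63 to 0.92). Because the study chose the list on these samples, its direction is not independent evidence. Rpl41, of the large ribosomal subunit, had 1744 and 1596 CPM in rejecting kidneys and 3964 and 4299 CPM in tolerized kidneys (log2 fold change 1.31, SE 0.26, FDR 0.273), and DESeq2 gave an FDR of 0.0109. Rps28, of the small subunit, had 330.1 and 687 CPM in rejecting kidneys and 1496 and 1733 CPM in tolerized kidneys (log2 fold change 1.67, SE 0.39, FDR 0.310), with an FDR of 0.0201 in DESeq2. The medians of the same genes were 1.02 in the cells with cDC2 markers and 0.89 in the C1q-high macrophages. The summed signature was 28428 and 33752 raw CPM in the naive cDC1s, 14289 and 15052 in the rejecting, and 22821 and 25457 in tolerized kidneys. Ribosomal genes have many pseudogene copies in the mouse genome, and how reads were divided between them was not measured, so that the levels are uncertain. Rpl13a-ps1, a processed pseudogene among the 5 lowest p values on the lower side, had 30.4 and 40 CPM in rejecting kidneys and 5.12 and 8.52 CPM in tolerized kidneys (log2 fold change -2.33, SE 0.49, FDR 0.281).

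Stress genes, which dissociation can induce, were at 10493 and 10234 raw CPM in rejecting kidneys and 8376 and 6122 raw CPM in tolerized kidneys in sum. Of 14 genes, all past the filter, 0 were higher and 4 (Hspa1a, Dnajb1, Hspa8, and Fos) lower in both tolerized kidneys, and their part in the other results was not tested. The median mitochondrial share was 3.54% and 4.02% in the cDC1s of tolerized kidneys against 3.64% and 3.76% in those of rejecting kidneys.

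The genes with the lowest p values on the higher side were Fut9, Ccl6, Maf, Selenop, and Tcn2, each with an FDR of 0.240 in edgeR. Ccl6, a C-C chemokine of mouse myeloid cells (chromosome 11, 83587882–83593087, minus strand in GRCm38), had 80.1 and 115 CPM in rejecting kidneys and 864 and 567 CPM in tolerized kidneys (log2 fold change 2.88, SE 0.36, FDR 0.240). It was found in 19 and 14 cells of rejecting kidneys and 26 and 30 of tolerized kidneys, and 181 of 675 UMIs of tolerized kidney 1 and 163 of 399 of tolerized kidney 2 came from 1 cell each. Its log2 fold change was 3.18 without tubule-rich cells and cells lacking Xcr1 and Clec9a, and DESeq2 called it with an FDR of 1.39e-07. The other 4 genes are given with and without those cells. Selenop, the plasma carrier of selenium, had 38.5 and 14.1 CPM in rejecting kidneys and 264 and 271 CPM in tolerized kidneys and a log2 fold change of 3.28, which was 1.16 without them. Tcn2, the transporter of vitamin B12, went from 3.77 to 1.19. Fut9, a fucosyltransferase, had 3 UMIs in 1 cell and 0 in rejecting kidneys and 99 and 96 UMIs in tolerized kidneys, of which 1 and 18 were left. Maf, a transcription factor, had 9 and 2 UMIs in rejecting kidneys and 92 and 83 UMIs in tolerized kidneys, of which 7, 2, 12, and 9 were left.

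The tubule markers themselves showed the same pattern: all 8 were higher in both tolerized kidneys, with a median log2 fold change of 3.62 in the cDC1s, 2.33 without the cells lacking Xcr1 and Clec9a, 1.56 without these and the tubule-rich cells, 1.10 in the cells with cDC2 markers, and 1.76 in the C1q-high macrophages.

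On the lower side the lowest p values belonged to Hist1h2ae, Rpl13a-ps1, Rsad2, Ccl3, and Cd8a. Hist1h2ae, a replication-dependent histone, had 144 and 106 CPM in rejecting kidneys and 42.2 and 42.6 CPM in tolerized kidneys (log2 fold change -1.56, SE 0.31, FDR 0.273). Cd8a, carried by CD8+ T cells and by cDC1s of lymphoid organs, had 49.7 and 21.2 CPM in rejecting kidneys and 5.12 and 5.68 CPM in tolerized kidneys (log2 fold change -2.72, SE 0.60, FDR 0.283), with 10, 5, 3, and 2 UMIs at most in 1 cell. T cell markers other than Cd3e summed to 127 and 59 raw CPM in rejecting kidneys and 17.2 and 54.5 raw CPM in tolerized kidneys, with Cd8a the most abundant in 3 of the 4 grafts, and their part in its difference was not tested.

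**Figure D5:**
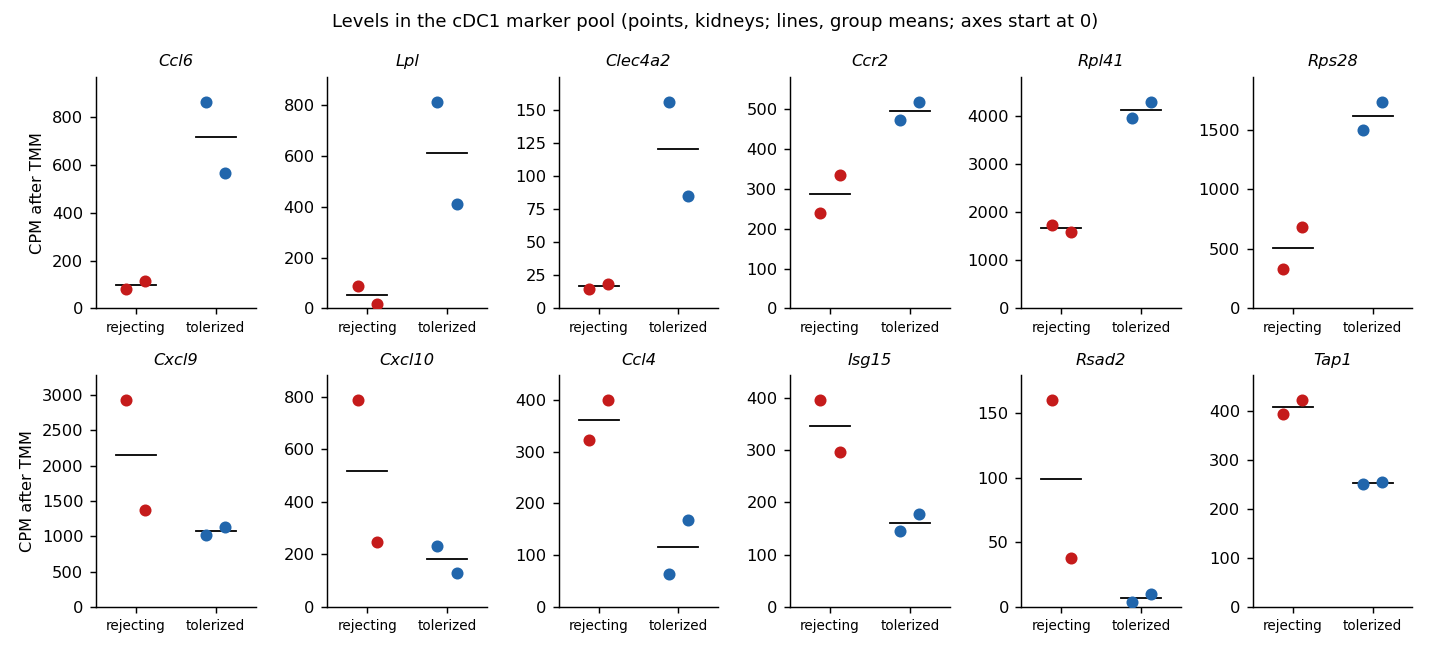
CPM after TMM normalization in the summed cDC1s of each rejecting and tolerized kidney (points) and the group means (lines) for 12 genes, each on a linear axis from 0. All 12 genes shown are from the 2504 of 6556 tested genes whose kidneys did not overlap between the groups. That the 2 tolerized kidneys lay on the same side in every panel thus follows from the choice. Genes that overlapped, such as Batf3, Flt3, and Ccl5, are not shown. No gene passed the FDR in edgeR without the replicate block.

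Whether the change between tolerized and rejecting kidneys differed between cDC1s and cells with cDC2 markers was tested as an interaction with the kidney as a block. In edgeR 3 of 6676 genes (0.0449%) passed the FDR, all with a more positive change in cDC1s, 565 had an unadjusted p under 0.05, and DESeq2 called 20. On simulated counts this test made 17 false calls among 6338 genes, more than its FDR allows, so that single calls are uncertain. It recovered 24.5% of changes of 4-fold, 68% of 8-fold, and 88% of 16-fold, shares that again hold for the simulated counts alone. The cDC2-marker sums of tolerized kidney 2 rested on 30 cells. Lpl, lipoprotein lipase, which releases fatty acids from circulating lipids (chromosome 8, 68880491–68907448, plus strand in GRCm38), had 88 and 16.2 CPM in rejecting kidneys and 802 and 411 CPM in tolerized kidneys in cDC1s. In the cells with cDC2 markers it had 127 and 10.9 CPM in rejecting kidneys and 74.9 and 37.8 CPM in tolerized kidneys (log2 difference 3.72, SE 0.39, FDR 0.0287). Only within cDC1s did its groups not overlap. In these tests the limits on tubule UMIs and on Xcr1 or Clec9a were applied to the cDC1s alone. The cells with cDC2 markers and the C1q-high macrophages kept all their cells. Without tubule-rich cells and cells lacking Xcr1 and Clec9a the difference was 3.59 (FDR 0.000254), and leaving out each kidney in turn gave 2.84 to 3.95, the lowest without rejecting kidney 1, where the FDR was 0.254. Few cells carried it: 12 and 5 cDC1s of rejecting kidneys and 20 and 14 of tolerized kidneys, with 206 of 636 UMIs of tolerized kidney 1 and 94 of 289 of tolerized kidney 2 in 1 cell each. In the naive cDC1s it had 4 and 4 UMIs.

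The other 2 genes were Umod and Selenop. Umod, uromodulin, a protein of the thick ascending limb of the kidney tubule, had 46.4 and 6.95 CPM in rejecting kidneys and 103 and 128 CPM in tolerized kidneys in cDC1s and 1059 and 90.4 CPM in rejecting kidneys and 28.8 and 119 CPM in tolerized kidneys in the cells with cDC2 markers (log2 difference 5.25, SE 0.58, FDR 0.0287). In the latter, 508 of the 518 UMIs of rejecting kidney 1 were in 1 cell, and without that kidney the difference was 4.55 (FDR 0.0565 in edgeR). Without tubule-rich cells and cells lacking Xcr1 and Clec9a among the cDC1s the Umod difference was 4.19 (FDR 0.000254). The cells with cDC2 markers were unchanged in that test and still held the cell with 508 Umod UMIs. Selenop had a log2 difference of 3.17 (SE 0.38, FDR 0.0331), which was 1.01 (FDR 0.724) without those cells, and the 2 limits were not separated for this test.

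Of the genes with a more negative change in cDC1s the lowest p values belonged to Cxcl9, Nusap1, Ube2c, Rgs1, and Ier5, none of which passed the FDR in edgeR. Cxcl9 had 1286 and 939 CPM in rejecting kidneys and 1685 and 1658 CPM in tolerized kidneys in the cells with cDC2 markers, the opposite order to that in cDC1s (log2 difference -1.51, SE 0.25, FDR 0.113). DESeq2 gave an FDR of 6.23e-05 for this difference. EdgeR gave 0.0104 when tubule-rich cells and cells lacking Xcr1 and Clec9a were left out of the cDC1s alone. Nusap1 and Ube2c, both of mitosis, had log2 differences of -4.51 and -2.99. Rgs1, a regulator of G protein signaling, and Ier5, an immediate early gene, had -1.61 and -1.25. On the other side Abca13 and Dab2 followed the 3 called genes, with FDRs of 0.0676 and 0.0735. Abca13 had 5 and 0 UMIs in the rejecting and 7 and 24 in the tolerized cDC1s. In the cells with cDC2 markers Abca13 had 119 and 3.62 CPM in rejecting kidneys and 0 and 0 CPM in tolerized kidneys.

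The same test against C1q-high macrophages called 0 of 8994 genes (0%) in edgeR, with 489 at an unadjusted p under 0.05, whereas DESeq2 called 17. The lowest p values on the positive side were those of Ccl6, Dok2, Clec4a2, Fn1, and Dab2. Ccl6 had 162 and 294 CPM in rejecting kidneys and 327 and 297 CPM in tolerized kidneys in the macrophages (log2 difference 2.32, SE 0.29, FDR 0.0811). The difference was 2.60 (FDR 0.00291 in edgeR) when tubule-rich cells and cells lacking Xcr1 and Clec9a were left out of the cDC1s alone. Clec4a2 and Dok2, an adaptor that dampens receptor signaling, had differences of 2.85 and 3.66 (FDR 0.0811 for both). Fn1 rested on 1, 2, 47, and 3 UMIs in the cDC1s of the 4 grafts. On the negative side stood Saa3, Ccl4, Ccl3, Hist1h2ap, and Pmepa1. Ccl4 had 423 and 481 CPM in rejecting kidneys and 365 and 581 CPM in tolerized kidneys in the macrophages, where the groups overlapped (log2 difference -1.84, SE 0.31, FDR 0.146), and Ccl3 129 and 179 CPM in rejecting kidneys and 180.2 and 275 CPM in tolerized kidneys (log2 difference -2.60, SE 0.50, FDR 0.244). For the interferon gene Isg15 the difference was -0.51 (FDR 0.976), for Cxcl9 -0.45 (FDR 0.959), and for Rpl41 -0.053 (FDR 0.998).

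The ligands of the receptors that mark these cells were read in other cells. Xcl1, the ligand of Xcr1, was at 226 and 163 in naive kidneys and 293 and 333 in rejecting kidneys, compared with 294 and 681 in tolerized kidneys (raw CPM of cells with Cd3e). In cells with Ncr1 and without Cd3e, which include NK cells, it was at 921 and 331 in naive kidneys and 235 and 634 in rejecting kidneys, compared with 569 and 827 in tolerized kidneys. Tolerized kidney 2 had the highest level in cells with Cd3e, and rejecting kidneys and tolerized kidney 1 lay between 293 and 333. Flt3l, counted in the grafts only, was at 21.5 and 23.6 raw CPM in rejecting kidneys and 26.8 and 22.8 raw CPM in tolerized kidneys in cells with Cd3e. Over all cells kept, Xcl1 was at 69.7 and 77.2 raw CPM in rejecting kidneys and 44.6 and 65 raw CPM in tolerized kidneys, and both tolerized kidneys lay below both rejecting kidneys. These levels were not tested, and the naive values rest on 11 and 35 cells with Cd3e.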

How the data were processed

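Kidneys were dissociated and single cells were sequenced from 6 libraries, 1 per kidney. The authors aligned reads and counted UMIs per gene with Cell Ranger on mm10 and deposited matrices of raw counts, which are whole numbers without normalization. Other steps of their processing were not used here. The members, gene lists, and tests were chosen with earlier results of these data known.

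Counts of the chosen cells were summed within each kidney (n = 2 per group), and 2 rejecting were compared with 2 tolerized kidneys. Genes passed edgeR's filterByExpr, were scaled by TMM, and were tested with edgeR 4.0.16 (R 4.3.3) by the quasi-likelihood test with Benjamini-Hochberg adjustment (FDR 0.05). DESeq2 1.42.0 was an alternative. The change was compared between kinds of cells of the same kidneys by an interaction term with the kidney as a block. Single values were compared by 2-sided exact permutation tests. The tests were also run on simulated counts with known changes.

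The text names a fixed panel of 42 genes and the 5 genes with the lowest p in each direction of each comparison. Doublets were scored with Scrublet in scanpy 1.11.5, at 0.8% per 1000 barcodes, and were kept in the main analysis. Totals per kidney were 41562534, 34874702, 56837038, 48111410, 96803926, and 94316013 UMIs (naive 1 and 2, rejecting 1 and 2, tolerized 1 and 2) in 9335, 9291, 13378, 8532, 10773, and 8872 barcodes. Gene positions are those of GENCODE M21 on GRCm38, the same assembly as mm10. Alternatives covered normalization, filters on genes and cells, the replicate block, and each kidney left out. The limit to cells with Xcr1 or Clec9a and at most 1% tubule UMIs, and that to chosen cells with Ptprc, were added after seeing the data. In the tests between kinds of cells the first of these limits was applied to the cDC1s alone. The result of 1 gene of the panel is not reported here.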

Additional observations from a re-analysis of the deposited data

Results flagged for a closer look

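In 3 genes the change between tolerized and rejecting kidneys differed between cDC1s and cells with cDC2 markers by the test of the difference itself (edgeR, FDR 0.05). The log2 difference was 3.72 for Lpl, with log2 fold changes of 3.49 in cDC1s and -0.21 in the other cells. It was 5.25 for Umod, from 2.02 and -3.06. It was 3.17 for Selenop, from 3.28 and 0.20. Each rested on 2 kidneys per group. On simulated counts this test made 17 false calls among 6338 genes, more than its FDR allows, so that the 3 calls are uncertain. Without rejecting kidney 1 the difference was 2.84 for Lpl (FDR 0.254 in edgeR) and 4.55 for Umod (FDR 0.0565), and neither passed. In that kidney 508 of the 518 Umod UMIs of the cells with cDC2 markers were in 1 cell. Tubule-rich cells and cells lacking Xcr1 and Clec9a were also left out of the cDC1s, with the cells with cDC2 markers unchanged. The difference was then 3.59 for Lpl and 4.19 for Umod (FDR 0.000254 for both). For Selenop the difference was 1.01 (FDR 0.724) without those cells.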

How the results depend on the processing

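The number of cDC1s per kidney and the shares with maturation or cell cycle genes stayed on the same side of their tests in the alternatives run, but 2 against 2 kidneys cannot pass a threshold, which says nothing about stability. The difference in chosen cells per 100 Ptprc-positive cells was 0.130 with cells thinned to 1500 UMIs first, against 0.807. The groups, apart in the main count, overlapped in 5 of the 9 ways of choosing cells (thinned, at most 20% mitochondrial UMIs, 3 of 4 markers, Xcr1 or Clec9a needed, and the latter with at most 1% tubule UMIs), and in all 9 when only chosen cells with Ptprc were counted. Counts of called genes depended on the tool, the filter, and single kidneys, and the cause was not tested. For cDC1s, edgeR called 0 genes, DESeq2 41, and edgeR without a filter on low counts 470; leaving out each kidney gave 0 to 350 (12 without tolerized kidney 1, 74 without rejecting kidney 2). For the difference from cells with cDC2 markers, the 3 calls became 20 with DESeq2, 259 without the filter, 21 with Xcr1 or Clec9a and at most 1% tubule UMIs required, and 11 to 479 with each kidney left out. For the difference from C1q-high macrophages the counts were 0, 17, 152, 10, and 19 to 394. Where a kidney was left out, the lone kidney was assumed to vary like the other group, and the median of all genes was 0.11 without rejecting kidney 1.

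With the replicate block, 247 genes were called in cDC1s, 222 of them higher in tolerized kidneys. The deviations of same-numbered kidneys from their group means correlated with r = 0.261 over 6556 genes, and the study speaks of separate experiments, but no source used here gives the experiment of each number, so that the pairing is not established. Of 62 named genes tested, 0 to 7 had another sign in an alternative, most without rejecting kidney 1. A fit of all 6 kidneys was not run, since the naive kidneys held 3 and 4 cDC1s.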

Other observations

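In the cDC1s, plasmacytoid dendritic cell markers summed to 363 and 391 raw CPM in rejecting kidneys and 143 and 562 raw CPM in tolerized kidneys, and all 6 of these genes passed the filter, with 1 higher and 0 lower in both tolerized kidneys. B cell markers summed to 214 and 445 raw CPM in rejecting kidneys and 89.8 and 259 raw CPM in tolerized kidneys, monocyte markers to 1319 and 1957 raw CPM in rejecting kidneys and 1041 and 1407 raw CPM in tolerized kidneys, neutrophil markers to 23.4 and 2.46 raw CPM in rejecting kidneys and 89.8 and 2.54 raw CPM in tolerized kidneys, and endothelial markers to 161 and 14.7 raw CPM in rejecting kidneys and 13.5 and 26.6 raw CPM in tolerized kidneys.

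Ifng, the cytokine that induces Cxcl9, was at 271 and 211 raw CPM in rejecting kidneys and 212 and 184 raw CPM in tolerized kidneys of cells with Cd3e. Csf2, a growth factor of myeloid cells, was at 0 and 1.07 raw CPM in rejecting kidneys and 1.29 and 8.27 raw CPM in tolerized kidneys of the same cells, from 0, 10, 16, and 53 UMIs.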
